A study of Mus musculus with 71 samples.

Results

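The step from lymphoid-primed multipotent progenitors (LMPPs) of the bone marrow to DN1 cells of the thymus was examined in 5 of the 71 samples of the series, 2 LMPP and 3 DN1 libraries of poly(A)-selected RNA. All 5 came from wild-type C57BL/6 mice and were sequenced from cells sorted by flow cytometry without culture. LMPPs were sorted from bone marrow as lineage-negative cells with CD135 (Flt3), Kit and Sca1 on their surface and no CD127. DN1 cells, also called early thymic progenitors, were sorted from thymus as lineage-negative CD25- CD44+ cells with high Kit. The 2 sorts used different lineage antibodies: those to CD3, CD49b and Ly6C stood only in the LMPP cocktail, and those to CD11c and TCRγδ only in the DN1 cocktail. The age and sex of the mice behind these libraries and their number per library were not found in the sources used here, which give an age range only for flow cytometry in general, so that p-values measure the spread between these libraries, which may be technical. Tissue of origin and developmental stage cannot be told apart. The 2 LMPP libraries are numbered 1 and 2, and the DN1 libraries carry the numbers 1, 2 and 2 and are called 1, 2a and 2b. The comparison was made across the 12706 of 24420 listed genes that were above 1 TPM (a transcript abundance scaled to gene length and to the library total) in at least 1 of the 5 libraries.

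LMPPs are multipotent progenitors with lymphoid and myeloid potential and little erythroid and megakaryocyte potential. A few of their progeny enter the thymus through the blood, where Delta-like ligands of the thymic epithelium engage Notch1 on their surface. The cleaved intracellular domain of Notch1 then binds the DNA-binding protein RBPJ and activates target genes, and the DN1 cells go through the DN2 and DN3 stages on their way to T-lineage commitment and rearrangement of the T cell receptor genes.

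The rank correlation across the 12706 genes was 0.987 between the LMPP libraries, 0.991 to 0.993 between the DN1 libraries and 0.942 to 0.955 between an LMPP and a DN1 library; genes are not independent replicates. Of the genes that define the sorts, Flt3 was at 697 and 680 TPM in LMPPs and at 187, 173 and 170 TPM in DN1 cells. Kit (308 and 344 against 333, 288 and 335.5 TPM), Ly6a, which codes for Sca1 (131 and 110 against 117, 118 and 133 TPM), and Cd44 (115 and 117 against 132, 114 and 118 TPM) overlapped between the groups. Il7r, which codes for CD127, was at 3.93 to 4.11 TPM in LMPPs and 9.01 to 12.7 TPM in DN1 cells. As these genes defined the sorts, their levels are a check and not a finding. LMPP replicate 1 stood apart from the other 4 libraries in its immediate-early genes, which are described at the end together with the values without it. A level near 0 can be a failed estimate, since Gapdh (2.56 to 7.05 TPM) and Eno1 (0.771 to 1.61 TPM), used by every cell, were also listed low.

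A total of 198 genes were higher and 321 genes were lower in DN1 cells than in LMPPs (Benjamini-Hochberg adjusted p below 0.05 with limma on log2(TPM + 0.1), more than 3-fold apart, and over 5 TPM on average in 1 group). This corresponds to 1.56% and 2.53% of all genes tested, or 4.08% for both directions. On the adjusted p alone, 2805 genes (22.1%) differed, of which 1046 (8.23%) rose and 1759 (13.8%) fell. The median log2 fold change of all genes was −0.06. In all 198 higher and all 321 lower genes, the ranges of the 2 groups did not overlap. The thresholds nearly ensure this, and the share over all genes was not counted, so that it adds no support. The changes were large for many genes, as 30 of the 198 and 32 of the 321 exceeded 32-fold, and 48 of the higher genes were below a mean of 1 TPM in LMPPs. Without LMPP replicate 1, the counts were 200 higher and 301 lower, and 1569 genes passed on the adjusted p alone.

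**Figure D1:**
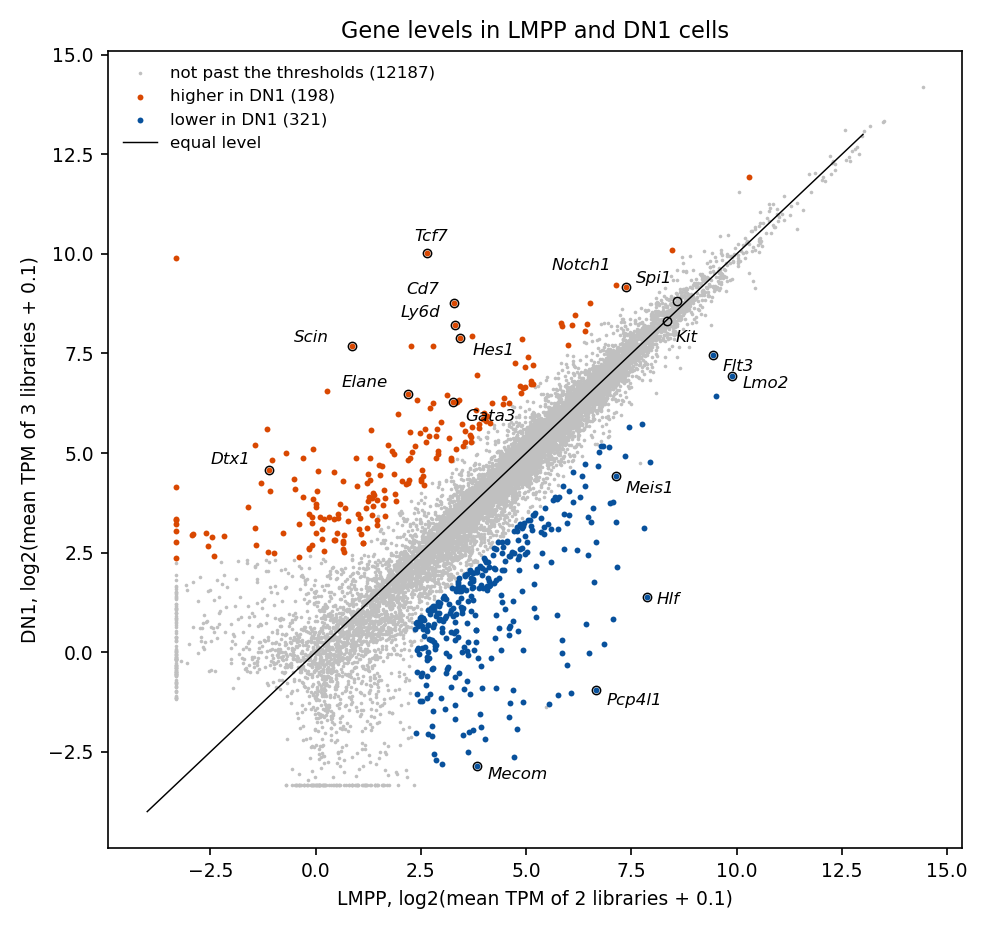
Mean level of each of the 12706 genes in LMPPs (x axis, 2 libraries) and DN1 cells (y axis, 3 libraries), both as log2(TPM + 0.1). Orange points are the 198 genes higher in DN1 cells and blue points the 321 lower genes. Tcf7, Cd7 and Dtx1 lie far above the line of equal levels and Hlf and Mecom far below it, while Kit and Spi1 lie on or near it.

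Beside T cell receptor segments and entries without a symbol, the largest rise was that of Tcf7, which codes for the T-lineage transcription factor TCF-1. It was at 4.73 and 7.51 TPM in the 2 LMPP libraries and at 1155, 931 and 1022 TPM in the 3 DN1 libraries. The ratio of the means was 169 (log2 fold change 7.41 ± 0.19 SE, adjusted p = 2.5e-07, limma). Mir133a-2, a microRNA gene, was listed at 0 in both LMPP libraries and at 16.1, 24.02 and 12.5 TPM in DN1 cells. Lcn4, a lipocalin gene, rose from 0.497 and 0.208 to 44.6, 53.9 and 46.9 TPM. Scin, which codes for the actin-severing protein scinderin, rose from 1.60 and 1.82 to 234, 159 and 229 TPM. These 4 genes thus were low or listed at 0 in both LMPP libraries and listed at 12.5 TPM or more in each DN1 library. The number of reads behind these levels is unknown, which matters most for a short entry such as that of a microRNA.

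The other 6 of the 10 largest rises were those of Fasl, Blk, Sytl3, Il2rb, Dtx1 and Gzmb. Fasl, the ligand of the death receptor Fas, rose from 0.291 and 0.249 to 28.9, 41.0 and 40.6 TPM (log2 fold change 6.62 ± 0.21). Il2rb, the β chain of the IL-2 and IL-15 receptors, rose from 0.470 and 0.298 to 28.4, 22.6 and 34.1 TPM (5.88 ± 0.24 on the log2 scale). Blk, a Src-family kinase known from B cells, rose from 0.838 and 0.195 to 33.9, 30.6 and 31.0 TPM. Sytl3, a synaptotagmin-like gene, Dtx1, a Notch target, and Gzmb, the cytotoxic granule protease granzyme B, made up the rest, with log2 fold changes of 5.91, 5.69 and 5.59. Among the genes past the thresholds, those of the highest DN1 level were Crip1 (a mean of 3898 TPM), Tyrobp (1103 TPM), Tcf7, Atp1b3 (596 TPM) and Notch1. Crip1, which codes for a LIM-domain protein, was already at 1336 and 1168 TPM in LMPPs.

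Of the 10 largest falls, that of Pcp4l1 came first. It fell from 94.4 and 107 to 0.399, 0.694 and 0.150 TPM (log2 fold change −7.76 ± 0.42, adjusted p = 6.0e-06, limma). Gng11, a G protein γ subunit, fell from 28.5 and 23.7 TPM and was listed at 0 in DN1 replicates 1 and 2b and at 0.187 TPM in 2a. Nkx2-3, a homeobox gene, fell from 61.5 and 71.1 to at most 0.496 TPM in a DN1 library. Tie1, a receptor tyrosine kinase of endothelial and stem cells, fell from 48.6 and 59.4 to at most 0.524 TPM. Gas6, a ligand of TAM receptors, Slc16a11, a transporter gene, and Pdzk1ip1 fell as well, with log2 fold changes of −6.78, −6.57 and −6.33. The transcription factor genes Mecom and Hlf were also among the 10 and are described with their list. Among the falling genes of the highest LMPP level were Lmo2, Prtn3, Flt3, the adhesion receptor gene Eltd1 (251 and 242 against 25.0, 27.7 and 29.6 TPM) and Hlf.

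Notch1 and Notch3 rose, while most other components of the Notch pathway did not pass the test. Of 22 components, 19 were tested, 5 rose and none fell, and the median log2 fold change was 0.11. When LMPP replicate 1 was left out, 3 rose. Notch1, the receptor required for T cell development, was at 144 and 187 TPM in LMPPs and at 638, 602 and 494 TPM in DN1 cells (log2 fold change 1.81 ± 0.16, adjusted p = 8.0e-05, limma). The name of the Notch1 entry carries a suffix that the sources used here do not explain. The same holds for many other named genes, among them Lck, Cd247, Lat, Cd34, Csf1r, Lyl1, Cd27, Cpa3, Pdgfra and Hbb-b1. Notch3 rose from 1.27 and 1.23 to 6.65, 6.89 and 7.24 TPM. The coactivator genes Maml1 and Maml3 and the glycosyltransferase gene Lfng, whose product modifies Notch receptors, rose by 0.69, 0.54 and 0.58 on the log2 scale, all below 2-fold. The values of the DNA-binding partner Rbpj (7.54 and 10.3 against 13.5, 10.2 and 12.4 TPM), of Notch2 and of the γ-secretase genes Psen2, Psenen, Ncstn and Aph1a did not pass the test. Of the ligand genes, Dll1, Dll4 and Jag1 were below 1 TPM in each library and Jag2 was at 16.6 to 25.2 TPM.

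Of the 11 Notch target genes, 8 were tested, 7 rose and 6 of these passed all thresholds, with a median log2 fold change of 4.06 over the 8. Tcf7 and Notch3 are among them and also counted in the lists of T-lineage factors and pathway components, respectively. Hes1, a transcriptional repressor, was at 19.0 and 2.23 TPM in LMPPs and at 228, 224 and 253 TPM in DN1 cells. Its log2 fold change was 5.14 ± 0.68 (adjusted p = 0.00093, limma), 6.66 without LMPP replicate 1 and 3.62 without LMPP replicate 2. With the robust estimate of the spread, Hes1 had an adjusted p of 0.059. Dtx1, which codes for a ubiquitin ligase of the Notch pathway, rose from 0.333 and 0.390 to 25.2, 21.0 and 24.9 TPM. It entered the test only through DN1 cells. Nrarp, an inhibitor of Notch signalling, rose from 7.22 and 13.9 to 81.1, 83.4 and 77.1 TPM. Hes5 rose by less, from 12.3 in both LMPP libraries to between 19.9 and 20.6 TPM. Il2ra, which codes for CD25, was at 0.598 and 1.13 TPM in LMPPs and at 36.5, 23.1 and 43.4 TPM in DN1 cells, although the gate took CD25- cells. Myc, at 535 to 752 TPM, did not pass the test, and Hey1, Heyl and Ptcra, which codes for the pre-T cell receptor α chain, were below 1 TPM in every library.

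The promoters of 4 of these targets are shown to set genes with a low or a high DN1 level beside their start sites. They span 250 bases before to 50 bases after the RefSeq start (build GRCm38.p6), with the core RBPJ motif TGGGAA and its reverse complement TTCCCA in capitals. Hes5 lies at chr4:154960673-154960972 on the plus strand, Ptcra at chr17:46763663-46763962 on the minus strand, Dtx1 at chr5:120711620-120711919 on the minus strand, and Nrarp at chr2:25180508-25180807 on the plus strand.
Hes5 promoter: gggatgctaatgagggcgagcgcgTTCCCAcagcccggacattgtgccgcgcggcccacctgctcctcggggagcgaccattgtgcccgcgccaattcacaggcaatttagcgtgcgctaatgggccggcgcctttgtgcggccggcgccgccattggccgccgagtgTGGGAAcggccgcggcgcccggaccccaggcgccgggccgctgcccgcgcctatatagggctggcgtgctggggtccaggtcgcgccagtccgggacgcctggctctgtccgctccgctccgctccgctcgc
Ptcra promoter: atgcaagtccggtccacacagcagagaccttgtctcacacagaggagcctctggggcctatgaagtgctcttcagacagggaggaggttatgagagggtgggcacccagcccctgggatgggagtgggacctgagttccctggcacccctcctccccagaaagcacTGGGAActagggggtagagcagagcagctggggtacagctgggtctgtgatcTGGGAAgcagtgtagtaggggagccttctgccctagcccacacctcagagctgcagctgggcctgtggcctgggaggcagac
Dtx1 promoter: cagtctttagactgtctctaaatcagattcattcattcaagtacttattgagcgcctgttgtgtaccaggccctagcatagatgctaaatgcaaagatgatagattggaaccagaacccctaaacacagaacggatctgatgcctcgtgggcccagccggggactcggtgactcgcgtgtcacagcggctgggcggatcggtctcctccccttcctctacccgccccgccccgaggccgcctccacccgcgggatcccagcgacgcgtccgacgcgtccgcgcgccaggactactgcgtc
Nrarp promoter: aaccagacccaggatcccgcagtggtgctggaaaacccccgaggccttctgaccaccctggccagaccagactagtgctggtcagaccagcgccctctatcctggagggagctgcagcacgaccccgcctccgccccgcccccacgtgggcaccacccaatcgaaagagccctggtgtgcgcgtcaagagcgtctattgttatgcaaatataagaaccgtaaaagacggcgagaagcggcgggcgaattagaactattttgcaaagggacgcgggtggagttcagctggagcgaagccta
Both motif matches of the Hes5 promoter, 82 and 226 bases before the start, face in opposite directions, and those of Ptcra lie 84 and 32 bases before it in the same direction. The windows of Dtx1 and Nrarp held none. Of the 11 targets, 7 had a promoter in the table and 2 of these held the motif on either strand, while 25.6% of all 32851 promoters did. A match describes these letters only, and the windows do not cover enhancers.

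The T-lineage transcription factors rose in DN1 cells as far as they were changed, with 1 exception. Of 19 genes, 18 were tested, 12 rose, 1 fell and 5 did not pass, with a median log2 fold change of 1.01. Genes at or below 1 TPM in both LMPP libraries entered the test only through DN1 cells and so could hardly be found lower, which holds for 4 of the 12 (Bcl11b, Lef1, Tox2 and Ikzf3). Beside Tcf7, 5 further genes passed all thresholds. Gata3, a zinc-finger factor needed for T cell development, rose from 8.47 and 10.6 to 89.7, 72.6 and 71.4 TPM (log2 fold change 3.02 ± 0.16, adjusted p = 5.1e-06, limma). Tox, which codes for an HMG-box factor, rose from 25.1 and 27.7 to 154, 140.4 and 165 TPM. Lef1, a relative of Tcf7, was low in both groups, with 0.0433 and 0.131 TPM in LMPPs and 5.14, 5.31 and 5.27 TPM in DN1 cells. Ikzf3, which codes for Aiolos, was at 0.137 TPM and listed at 0 in the LMPP libraries and at 5.69, 7.17 and 5.98 TPM in DN1 cells. Sox13 rose by 1.94 on the log2 scale. Bcl11b, the commitment factor of the T lineage, remained low, with 0.355 and 0.383 TPM in LMPPs and 3.44, 2.23 and 3.37 TPM in DN1 cells (log2 fold change 2.71 ± 0.35). Ets1, Runx1 and Runx3 rose by between 0.68 and 1.14 on the log2 scale. The exception was Zbtb7b, the CD4-lineage factor ThPOK, which fell from 13.2 and 14.6 to 1.43, 0.785 and 1.86 TPM. When LMPP replicate 1 was left out, 9 of the 18 rose.

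Among E and Id proteins, which activate lymphoid genes and antagonize this activation, respectively, 3 of 6 genes rose and 1 fell. Id3 rose from 1.75 and 1.01 to 12.7, 11.4 and 15.4 TPM and Id2 from 11.5 and 10.8 to 33.3, 36.8 and 37.2 TPM. The E protein gene Tcf3 rose by 0.58 and Tcf4 fell by 0.55 on the log2 scale, but the values were 0.32 for Tcf3 without LMPP replicate 1 (adjusted p = 0.088, limma) and −0.34 for Tcf4 without LMPP replicate 2 (adjusted p = 0.18). Of the rest, Tcf12 (0.14 on the log2 scale) and Id1 (−0.52) did not pass the test. The median log2 fold change of the 6 was 0.36.

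Genes of the T cell receptor complex and its signalling rose in large number. Of 23 genes, 20 were tested, 18 rose, none fell and 12 passed all thresholds, with a median log2 fold change of 2.59. Of the 18, 5 entered the test only through DN1 cells, among them Cd3e, Cd3d, Cd2 and Trat1. Cd3e rose from 0.660 and 0.560 to 14.2, 14.1 and 22.5 TPM, Cd3d from 0.289 and 0.242 to 7.20, 6.98 and 11.7 TPM, and Cd3g from 0.422 and 1.86 to 10.7, 9.28 and 11.3 TPM. These CD3 genes were thus low in DN1 cells, and the antibody to CD3 stood in the LMPP cocktail only. The part of this difference in the result was not tested. The kinase gene Lck was already at 95.7 and 87.4 TPM in LMPPs and reached 416, 392 and 501 TPM, and Zap70 rose from 2.09 and 2.46 to 15.2, 12.0 and 14.5 TPM. Cd7, which codes for a surface protein of early T cells, rose from 11.3 and 8.06 to 431, 440.1 and 441.5 TPM (log2 fold change 5.51 ± 0.15, adjusted p = 2.5e-07, limma). Cd5 and Cd6, 2 related surface receptors, rose by 3.60 and 3.01, the adaptor gene Trat1 by 4.14 and Thy1 by 2.28 on the log2 scale. Dntt, which codes for the terminal transferase that adds N nucleotides, rose from 779 and 775 to 1406, 1442 and 1346 TPM. Rag1, at 2.21 to 5.06 TPM, and Cd27, at 619 to 690.3 TPM, did not pass the test, and Cd28, Themis and Ptcra were below 1 TPM in each library.

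**Figure D2:**
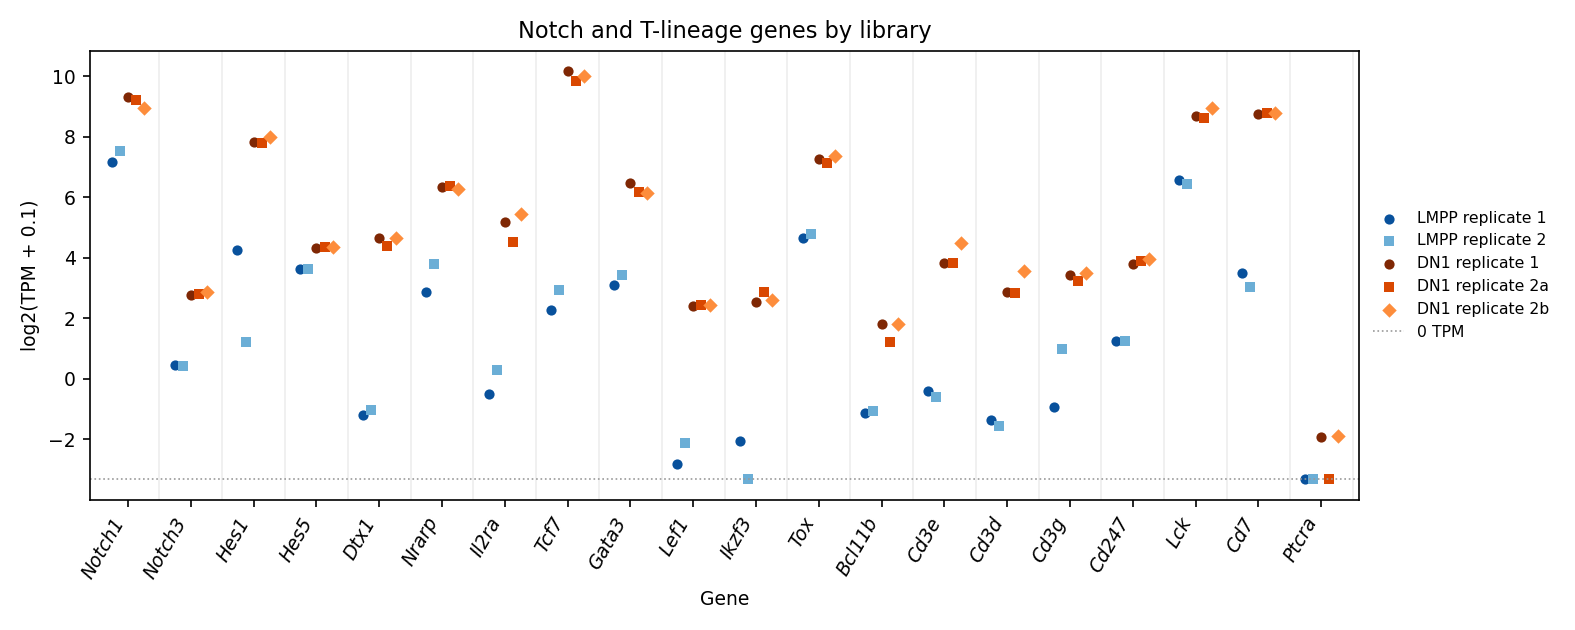
Level of 20 Notch and T-lineage genes in each of the 5 libraries as log2(TPM + 0.1); blue symbols are the 2 LMPP and orange to brown symbols the 3 DN1 libraries, and the dotted line marks 0 TPM. The DN1 libraries lie above both LMPP libraries for all genes shown except Ptcra, and the 2 LMPP libraries lie apart for Hes1.

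Segments of the T cell receptor loci were named after their values had been seen. Of 207 listed segments, 32 were tested, 16 rose, 1 fell and 9 of the former passed all thresholds. As 25 of the 32 entered the test only through DN1 cells, among them 13 of the 16, and the falling segment only through LMPPs, these counts are largely set by the filter. Trbj1-7 was listed at 0 in both LMPP libraries and at 1200.4, 1037 and 637 TPM in DN1 cells. Trbv13-2 was at 13.1 TPM in both LMPP libraries and at 297, 205 and 239 TPM in DN1 cells. Trdj1 was at 2.21 TPM and listed at 0 in LMPPs and at 83.9, 97.3 and 102 TPM in DN1 cells. Trdv5, Trdd2, Trgv2, Trgj1 and Trbv16 were listed at 0 in both LMPP libraries and reached between 1.97 and 13.1 TPM in DN1 cells. These entries are short, which raises the TPM that a read is worth, and germline and rearranged transcripts cannot be told apart in such a table.

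Transcription factors of stem and progenitor cells fell in part. All 23 genes were tested, 14 fell, 2 rose and 7 did not pass, with a median log2 fold change of −0.72, and 8 of the falling genes passed all thresholds. Mecom, which codes for the stem cell factor EVI1, was at 13.9 and 14.6 TPM in LMPPs and at 0.0761, 0.0284 and 0.00916 TPM in DN1 cells (log2 fold change −6.73 ± 0.44, adjusted p = 1.8e-05, limma). Hlf, a PAR-family factor, fell from 208 and 256 to 2.85, 2.31 and 2.34 TPM (−6.48 ± 0.16). Both thus were close to 0 in each DN1 library. Of the 14 falling genes, Mecom entered the test only through LMPPs. Other genes fell to an intermediate level. Lmo2, an adaptor of progenitor transcription factor complexes, fell from 909 and 985 to 137, 119 and 111 TPM. Meis1, a partner of HOX proteins, fell from 129 and 150 to 21.9, 21.0 and 21.3 TPM. Gata2 and Cebpa, which drive early hematopoietic and myeloid development, fell by 3.07 and 3.27 and Hoxa10 by 3.41 on the log2 scale.

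The change was unequal among related genes of this list. Hoxa10 was at 23.6 and 21.5 TPM in LMPPs and at 2.00, 2.14 and 1.97 TPM in DN1 cells, Hoxa9 fell only from 82.1 and 67.3 to 38.5, 48.8 and 35.8 TPM, and Hoxa7 (41.8 and 42.3 against 48.6, 44.6 and 45.7 TPM) did not pass the test. Tal1 fell by 1.29 on the log2 scale, whereas its paralog Lyl1 (421 and 485 against 408, 399 and 379 TPM) did not pass. Erg (153 and 196 against 174, 155.5 and 157 TPM), Hhex (256 and 266 against 277, 294 and 286 TPM), Bcl11a and the myeloid and lymphoid factor Spi1 (347 and 422 against 449, 457 and 437 TPM) did not pass either. Mycn, a MYC family gene, rose from 90.2 and 95.0 to 287, 248 and 227 TPM, and Gfi1b rose from 31.1 and 39.8 to 88.0, 75.3 and 68.0 TPM.

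**Figure D3:**
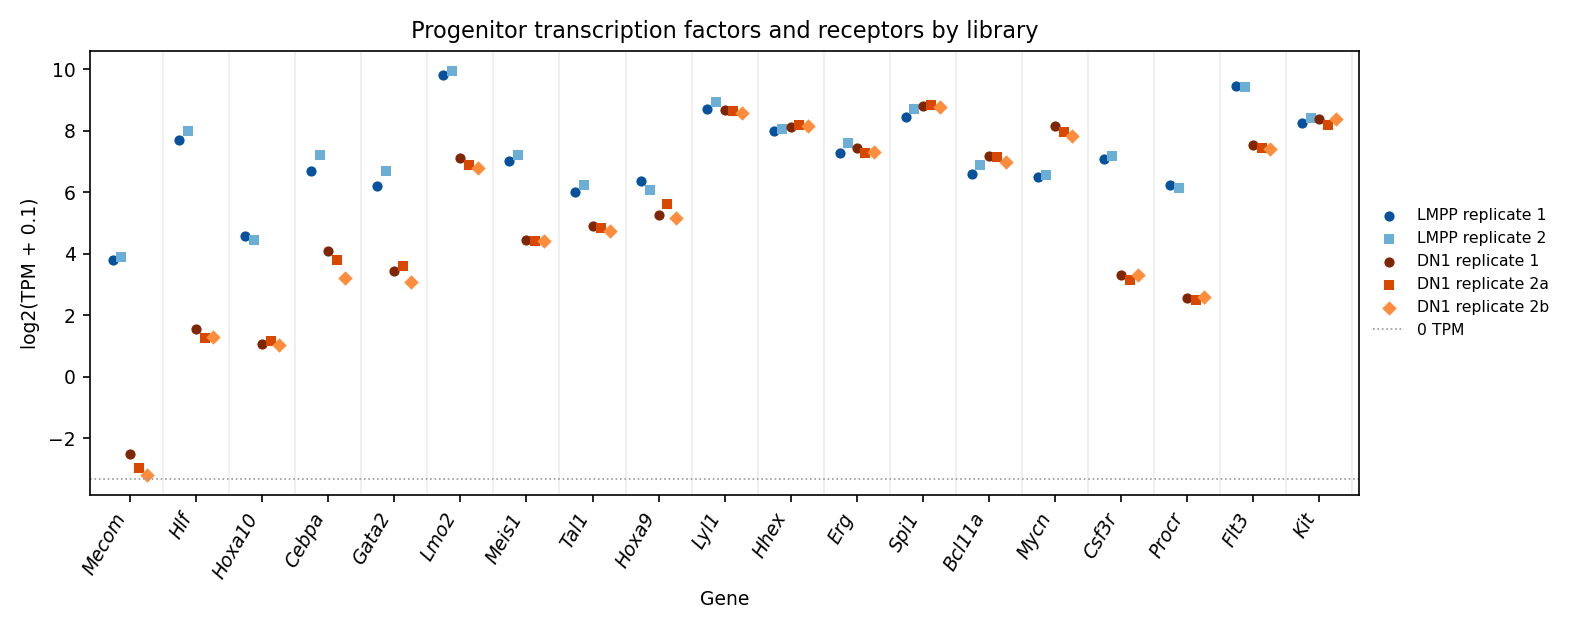
Level of 15 progenitor transcription factor genes and 4 receptor genes in each of the 5 libraries as log2(TPM + 0.1), with symbols for LMPP (blue) and DN1 libraries (orange to brown). Mecom and Hlf drop by more than 6 log2 units, Lmo2 and Meis1 by less than 3, and Erg and Kit overlap between the groups.

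The growth factor and cytokine receptors changed in both directions. Of the 21 tested genes, 8 rose and 9 fell (8.23% and 13.8% over all genes). The other 4 did not pass, and the median log2 fold change of the list was −0.15. These counts include genes of the gates, with Flt3 among the falling, Il7r and Il2ra among the rising and Kit among the rest. The levels of these gate genes are a check of the sorts. Il2rb entered the test only through DN1 cells and Tek only through LMPPs, so that their directions were largely set by the filter. Without LMPP replicate 1, 5 rose and 7 fell. Csf3r, the G-CSF receptor, fell from 136 and 146 to 9.91, 8.78 and 9.84 TPM (log2 fold change −3.87 ± 0.13, adjusted p = 6.7e-07, limma), and Procr, a stem cell surface protein, from 75.8 and 70.8 to 5.77, 5.59 and 5.97 TPM. Il6ra fell by 1.80 on the log2 scale. In contrast, Csf1r, the receptor of the macrophage growth factor M-CSF, rose from 23.96 and 24.3 to 79.9, 74.2 and 73.8 TPM. Il2rg, the common γ chain, was present in LMPPs at 201 and 199 TPM and rose to 321, 276 and 318 TPM, beside the larger rises of Il2rb and Il2ra. Il18rap (28.4 to 38.2 TPM) and Ifngr1 (98.5 to 140.5 TPM) did not pass the test, and Epor was below 1 TPM in each library.

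Homing receptors and adhesion molecules changed less, as 8 of 20 genes rose, 3 fell and none passed the fold threshold and the level threshold together. Ccr9, the receptor of the thymic chemokine CCL25, rose from 9.24 and 5.71 to 18.1, 20.6 and 18.8 TPM. The P-selectin ligand gene Selplg rose from 353 and 410.4 to 645, 624 and 682 TPM. The integrin genes Itgal, Itga4 and Itgb7 rose by 1.43, 1.32 and 1.16 on the log2 scale. S1pr1, the receptor that directs exit from the thymus, fell from 12.4 in both LMPP libraries to 6.75, 5.24 and 5.35 TPM, Itga6 by 1.27 and Cd34 by 0.49 on the log2 scale. Ccr7, which also serves thymus settling, was at 13.2 to 14.9 TPM in all 5 libraries and did not pass the test, nor did Cxcr4.

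Of 34 cell cycle genes, 12 fell, 1 rose and 21 did not pass the test, with a median log2 fold change of −0.36. Cdk1, the mitotic kinase gene, fell from 76.4 and 65.3 to 38.9, 31.8 and 36.4 TPM and Birc5 from 47.5 and 43.4 to 27.1, 23.0 and 25.8 TPM. The cell cycle inhibitor gene Cdkn1c, which is known from quiescent stem cells, fell from 9.72 and 10.9 to 1.29, 0.792 and 1.53 TPM, the sole cell cycle gene past all thresholds. Cdk6, a G1 kinase gene, rose by 1.08 on the log2 scale, and the replication genes Mcm2 to Mcm7 did not pass the test. These counts depended on the LMPP libraries, as 6 genes fell and 0 rose without LMPP replicate 1, and 4 fell and 6 rose without LMPP replicate 2.

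Among 18 glycolysis genes, 6 fell, 1 rose and 11 did not pass, with a median log2 fold change of −0.05. Ldhb, a lactate dehydrogenase gene, fell from 112 and 108 to 39.1, 41.7 and 37.7 TPM and Pfkp, a phosphofructokinase gene, from 22.9 and 29.2 to 9.41, 6.86 and 8.20 TPM, whereas the related Ldha and Pfkl did not pass the test. Without LMPP replicate 1, 4 glycolysis genes fell and 0 rose, and without LMPP replicate 2, 2 fell and 3 rose.

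Markers of granulocytes and macrophages were split, as 6 of the 17 tested genes rose and 7 fell (8.23% and 13.8% over all genes). Of the 7, 3 (S100a8, S100a9 and Ngp) entered the test only through LMPPs, and of the 6, Ms4a3 only through DN1 cells. The directions of these genes were thus largely set by the filter. The summed level of the list was 3031 to 3035 TPM in LMPPs and 3176 to 3454 TPM in DN1 cells. Most of it came from Mpo (1273 and 1498 against 1604, 1567 and 1769 TPM), the myeloperoxidase gene, which did not pass the test. The neighboring neutrophil protease genes Elane and Prtn3 changed in opposite directions. Elane rose from 4.00 and 5.02 to 86.2, 80.7 and 103 TPM (log2 fold change 4.29 ± 0.16, adjusted p = 1.1e-06, limma), and Prtn3 fell from 695 and 751 to 89.9, 73.0 and 95.6 TPM (−3.08 ± 0.14, adjusted p = 2.4e-06). Tyrobp, which codes for the signalling adaptor DAP12, rose from 410.1 and 300.3 to 1027, 1174 and 1109 TPM, and Fcgr3 and Ly6c2 rose by 2.62 and 2.82 on the log2 scale. The antibody to Ly6C stood in the LMPP cocktail only, and its part in the value of Ly6c2 was not tested. Lyz2 and the granule genes S100a8 and S100a9 of mature neutrophils fell, the last from 14.96 and 9.29 TPM to 0.226 TPM in replicate 2b and to a listed 0 in the other DN1 libraries. In such bulk samples, fewer cells of a type and less RNA per cell cannot be told apart.

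Of 15 natural killer and innate lymphoid markers, 8 were below 1 TPM in each library, 7 were tested and 6 of these rose. All but Nkg7 of the 6 entered the test only through DN1 cells, so that the count has no weight of its own. The antibody to CD49b, an antigen of natural killer cells, stood in the LMPP cocktail only, and its part in these values was not tested. Nkg7, a granule protein gene, was at 415 and 355 TPM in LMPPs and at 789, 729 and 819 TPM in DN1 cells. Gzmb rose from 0.0795 and 0.0484 to 7.73, 7.16 and 8.50 TPM, and Zbtb16, which codes for PLZF, from 0.613 and 0.876 to 4.28, 3.09 and 2.86 TPM. The defining markers Ncr1 (at most 0.0613 TPM), Klrb1c (at most 0.454 TPM) and Eomes (at most 0.564 TPM) were close to 0 in all 5 libraries. The summed level of the list was 362 and 422 TPM in LMPPs and 750.4 to 842 TPM in DN1 cells, most of it from Nkg7.

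Of 7 tested B-lineage markers, 2 rose and 1 fell, and the defining genes Pax5 and Ebf1 were below 1 TPM in every library and Ms4a1 was listed at 0. Blnk fell from 6.69 and 6.84 to 2.18, 1.24 and 0.942 TPM but lost its call when either LMPP library was left out. Ly6d rose from 10.4 and 9.14 to 302, 291 and 295 TPM (log2 fold change 4.91 ± 0.12, adjusted p = 2.3e-07, limma). It supplied most of the summed level of 373 to 385 TPM in DN1 cells, against 102 to 134 TPM in LMPPs. In later wild-type thymocytes, Ly6d was at 1597 to 2248 TPM (DN2a), 3439 to 4369 TPM (DN3a) and 847 to 1020 TPM (DN3b). The sum thus rests on a gene that was also high in later thymocytes. Of 15 tested dendritic cell markers, 3 rose and 3 fell (8.23% and 13.8% over all genes), and none passed the thresholds, with Siglech and Clec9a below 1 TPM in each library. Without LMPP replicate 1, 2 of them rose and 0 fell, and without LMPP replicate 2, 1 rose and 0 fell. Itgax, which codes for CD11c, rose from 5.82 and 5.22 to 18.4, 13.7 and 15.7 TPM, although the antibody to CD11c stood in the DN1 cocktail only. Their summed level was 1081 to 1183 TPM in LMPPs and 916 to 1488 TPM in DN1 cells. Irf8, a factor of monocytes and dendritic cells, fell from 114 and 123 to 62.8, 47.4 and 68.1 TPM. It lost its call when either LMPP library was left out.

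Of 9 tested erythroid and megakaryocyte markers, 4 fell and none rose, with Pf4 among the 2 past the thresholds, and the summed level was 864 to 880.0 TPM in LMPPs and 327 to 338 TPM in DN1 cells, most of it from Car2 (681 and 662 against 297, 295 and 305 TPM). Hbb-b1 was listed at 0 and Gata1 was below 1 TPM in all 5 libraries. Of the thymic stroma markers, 8 of 11 were below 1 TPM in each library, among them Foxn1 and Pdgfra, which were listed at 0 in all 5. Of the 3 tested, Krt18 fell from 88.7 and 96.9 to 10.4, 7.75 and 10.7 TPM, Pecam1 rose by 0.44 on the log2 scale and Epcam did not pass. The summed level was 182 to 195 TPM in LMPPs and 129 to 144 TPM in DN1 cells. Of the later thymocyte markers, 4 of 6 tested rose, which were Il2ra, Cd5, Bcl11b and, at an adjusted p of 0.049 by limma, Rag2, and their sum was 20.6 to 20.8 TPM in LMPPs and 71.8 to 93.7 TPM in DN1 cells. Cd4 (7.87 to 12.6 TPM) did not pass, and Cd8a and Cd8b1 were below 1 TPM in each library. The Y-linked genes Ddx3y, Eif2s3y, Kdm5d and Uty were present at 3.07 to 15.7 TPM in all 5 libraries and none passed the test.

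**Figure D4:**
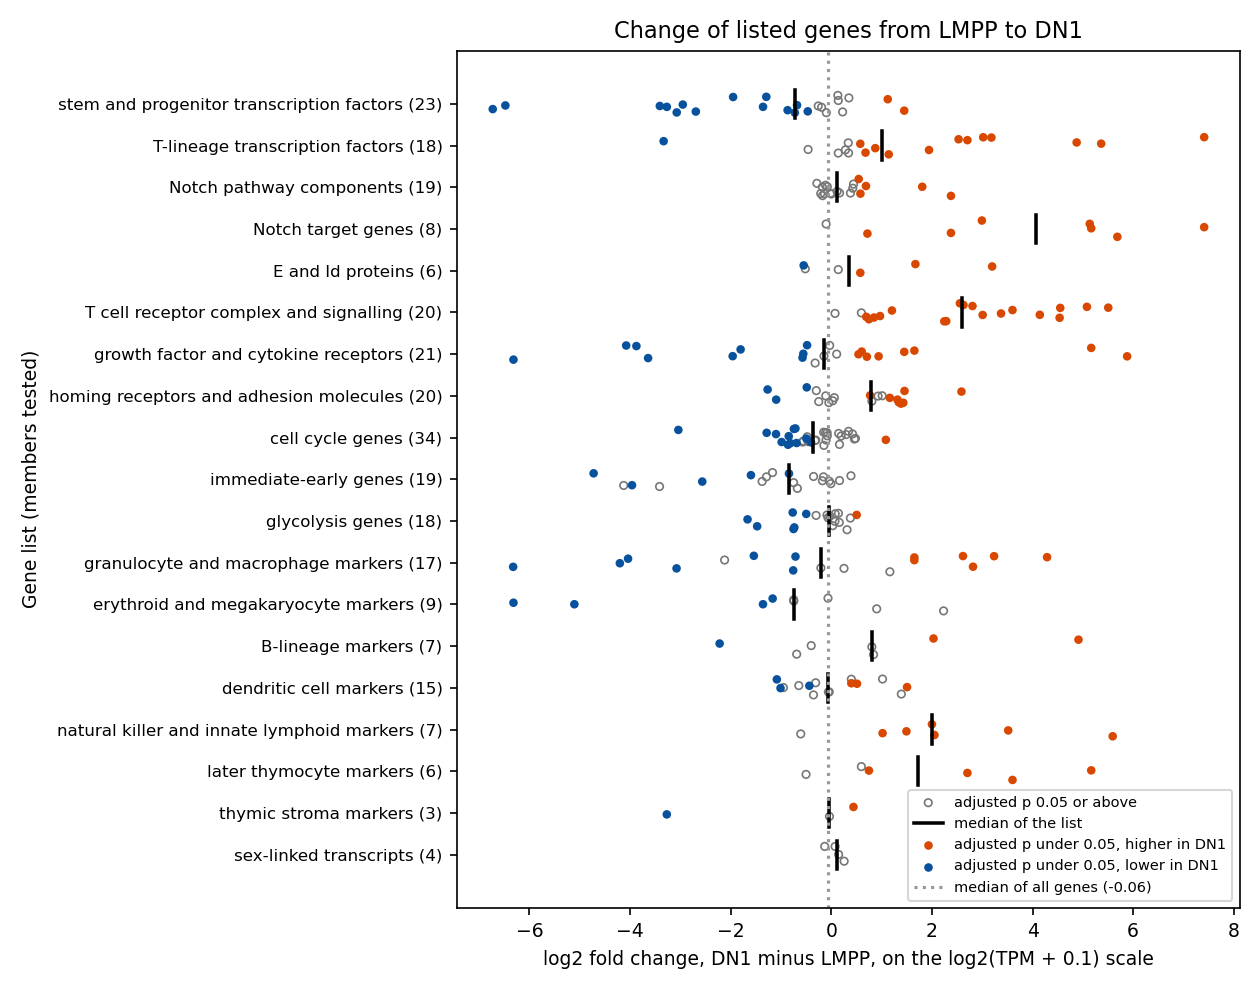
Log2 fold change (DN1 minus LMPP, x axis) of the tested members of each of 19 gene lists. Filled points passed an adjusted p of 0.05 (orange higher, blue lower in DN1), open points did not, black bars are list medians and the dotted line is the median of all genes (−0.06). The medians of the Notch targets (4.06) and the T cell receptor genes (2.59) lie farthest to the right.

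Immediate-early genes, which respond to handling and to growth signals within minutes, differed between the 2 LMPP libraries. Of the 19 genes, 9 were more than 3-fold higher in LMPP replicate 1 than in replicate 2, compared with 194 of all 12706 genes (1.53%). Fos was at 227 TPM in LMPP replicate 1, 3.39 TPM in LMPP replicate 2 and 0.600, 0.820 and 1.77 TPM in DN1 cells. Fosb was at 88.7 TPM in LMPP replicate 1 and at most 0.383 TPM in the other 4 libraries. Nr4a1 was at 154 and 7.26 TPM in LMPPs and at 29.1, 29.3 and 32.0 TPM in DN1 cells, which thus lie between the LMPP libraries. With all 5 libraries, 5 of the 19 fell (Fos, Jun, Egr1, Zfp36 and Socs3) and none rose, and the median log2 fold change was −0.84.

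Without LMPP replicate 1, Fos (log2 fold change −1.71, adjusted p = 0.17, limma), Jun (−0.99, adjusted p = 0.051) and Socs3 (−0.84, adjusted p = 0.076) no longer passed the test. Egr1 (−2.17, adjusted p = 0.016) and Zfp36 (−0.85, adjusted p = 0.021) still fell, and Nr4a1 rose (2.04, adjusted p = 0.0034). The summed level of the list was 1758 TPM in LMPP replicate 1, 612 TPM in LMPP replicate 2 and 591 to 645 TPM in DN1 cells. The part of RNA or cell handling in this difference was not tested.

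**Figure D5:**
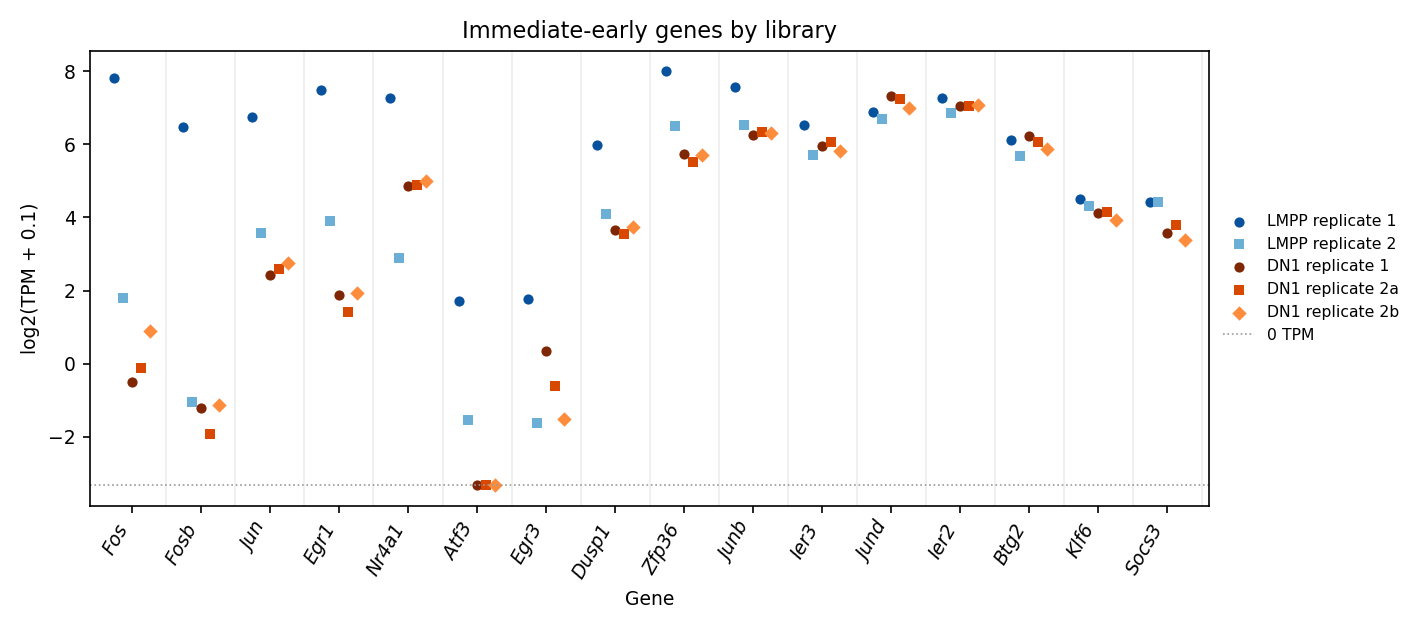
Level of 16 immediate-early genes in each of the 5 libraries as log2(TPM + 0.1), with LMPP libraries in blue and DN1 libraries in orange to brown; the dotted line marks 0 TPM. LMPP replicate 1 lies above the other 4 libraries for Fos, Fosb, Jun, Egr1, Nr4a1, Atf3, Egr3 and Dusp1, and the libraries lie close together for Ier2, Btg2 and Klf6.

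The same genes were read in the wild-type DN2a, DN2b, DN3a and DN3b libraries, which were processed in the same way, to place the DN1 level (3, 3, 2 and 2 libraries; a description with no test). Tcf7, at 931 to 1155 TPM in DN1 cells, was at 1149 to 2112 TPM in DN2a cells and 4057 to 4375 TPM in DN3b cells. Bcl11b was at 2.23 to 3.44 TPM in DN1 cells and at 54.8 to 139 TPM in DN2a cells, and Il2ra was at 23.1 to 43.4 and 528 to 738 TPM. Cd3e, at 14.1 to 22.5 TPM in DN1 cells, was at 9.04 to 17.9 TPM in DN2a cells and 349.8 to 714 TPM in DN2b cells, so that the DN1 and DN2a ranges overlap. Dtx1 was at 21.0 to 25.2 TPM in DN1 cells, 5.39 to 6.65 TPM in DN2b cells and 392 to 491 TPM in DN3a cells, and Ptcra, below 1 TPM in DN1 cells, was at 889.5 to 1081 TPM in DN3a cells.

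Progenitor genes that fell only in part by DN1 were lower in the next stage. Flt3 was at 170 to 187 TPM in DN1 cells and 1.93 to 5.07 TPM in DN2a cells, Lmo2 at 111 to 137 and 11.1 to 17.1 TPM, and Meis1 at 21.0 to 21.9 and 2.10 to 2.69 TPM. Spi1, which did not pass the test between LMPPs and DN1 cells, was at 437 to 457 TPM in DN1, 164 to 219 TPM in DN2a and 32.1 to 52.0 TPM in DN2b cells. Mpo was at 1567 to 1769 TPM in DN1 and 426 to 469 TPM in DN2a cells. Elane, at 80.7 to 103 TPM in DN1 cells, was at 0.124 to 0.153 TPM in DN2a cells, and Cd7, at 431 to 441.5 TPM, was at 95.9 to 122 TPM, so that both were higher in the DN1 libraries than in the LMPP and DN2a libraries.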

How the data were processed

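RNA-seq of sorted wild-type LMPPs (2 libraries) and DN1 cells (3) was analysed from the deposited tables. Per the methods and the labels, the authors used TopHat 1.4.1 with the mm9 build and computed TPM from RefSeq genes. Each deposited file holds 2 unlabelled TPM values per gene in 1 column of signal, which sums to 1999999 or 2000000 without the entries of exactly 1. Here, their mean was used and a value of exactly 1 was read as 0. Read totals are not in these tables, so that depth is unknown. Judged by the steps between low values, a read was worth 1.07 to 1.91 times the TPM of LMPP replicate 1 in the other 4 libraries.

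Genes above 1 TPM in at least 1 library were tested on log2(TPM + 0.1) with limma 3.58.1 (R 4.3.3, trended eBayes, two-sided, Benjamini-Hochberg over 12706 genes); fold changes of low genes are understated by the pseudocount. "Rose" and "fell" mean an adjusted p below 0.05. Thresholds were an adjusted p below 0.05, a fold above 3 and a mean above 5 TPM in 1 group, after the study, without histone genes (86 entries; of the immunoglobulin genes that the study also left out, 0 entries matched); the study ran a count model that these tables do not allow. On simulated data for this comparison (12318 genes), 91% of 4-fold and 100% of 8-fold changes were recovered, with 0 false calls. These changes were placed only in genes of higher level, and all genes and libraries were given the same dispersion. The recovery thus does not cover low genes, and the absence of false calls does not cover a library that stands apart. Named genes are the 10 largest changes and the 5 highest levels in each direction, without T cell receptor segments and features lacking a symbol, and the members of 19 lists. List members without a single entry of their symbol were not counted. The members and lists were chosen with earlier results of these data known. The other samples were not used here, apart from 10 later thymocyte libraries. Some listed genes are counted but not reported by name here.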

Additional observations from a re-analysis of the deposited data

How the results depend on the processing

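The counts of higher (198) and lower (321) genes stayed within 1.5 times under all alternatives run, at 184 to 220 and 266 to 338 across 14 settings (pseudocount, filter, value per gene, entries of 1, scaling, estimate of the spread, libraries in the fit, replicate block, excluded genes) and at 196 to 210 and 292 to 326 when each of the 5 libraries was left out. The 2805 genes on the adjusted p alone were 2328 to 2967 across the 14 settings and 1569 to 2482 with a library left out, lowest without LMPP replicate 1, where the lone LMPP library is assumed to vary like the DN1 libraries. With quantile normalization 220 genes were higher and 266 lower. With the replicate number as a block, 199 genes were higher, 318 lower and 2328 passed on the adjusted p alone. Whether the numbers pair these libraries cannot be told. The deviations of the 2 LMPP libraries mirror each other, so that their correlations with DN1 deviations (−0.084 to 0.084) are symmetric by construction. Nr4a1, not called with all 5 libraries (−0.16), had a log2 fold change of 2.04 without LMPP replicate 1 and of −2.35 without LMPP replicate 2, both called. Other named genes changed sign in some settings, but none with a call before or after. Fos lost its call in 10 settings and Rag2 in 12. Tyrobp lost its call with all 15 wild-type libraries in the fit (adjusted p = 0.06, limma). Among others, Pf4, S100a8, Blnk, Irf8 and Socs3 lost their calls when either LMPP library was left out. With 2 and 3 libraries of unknown depth, genes near 1 TPM are the least certain.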

Other observations

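Some genes outside the lists, named after their values were seen, also changed. The complement genes C1qa, C1qb and C1qc, which tissue macrophages express, were at 8.77 to 17.6 TPM in the LMPP libraries and at most 0.296 TPM in the DN1 libraries, with a listed 0 for each gene in 1 DN1 library. The macrophage marker Emr1 was at 0.703 and 0.417 TPM in LMPPs and Cd14 at 0.903 and 0.430 TPM. Cpa3, a mast cell and basophil protease gene, rose from 0.782 and 0.631 to 29.9, 27.6 and 30.8 TPM. Pdcd1, which codes for the receptor PD-1, rose from 1.04 and 0.821 to 17.0, 14.0 and 18.1 TPM, and Tnfsf11, which codes for RANKL, from 0.315 and 0.647 to 7.68, 8.24 and 7.74 TPM. Pdgfrb, a receptor gene known from stromal cells, rose from 51.0 and 64.3 to 308, 270 and 299 TPM, and the chemokine gene Ccl5 from 15.4 and 16.3 to 69.5, 57.7 and 65.2 TPM.

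The DN1 libraries differed among themselves in MHC class II genes. The summed level of H2-Aa, H2-Ab1, H2-Eb1 and Cd74 was 499 and 388 TPM in the LMPP libraries and 319, 147 and 714 TPM in DN1 replicates 1, 2a and 2b, and none of the 4 genes passed the test. H2-Aa ranged from 14.7 to 109 TPM among DN1 libraries. The other dendritic cell markers did not follow as a list. Among the DN1 libraries, Xcr1 (1.16 TPM), Batf3 (3.35 TPM), Clec9a, Spib and Irf8 were highest in replicate 2b as well. Siglech, Bst2, Irf7, Pacsin1, Cox6a2, Itgax, Zbtb46, Cd209a and Sirpa were not.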
